A study of Mus musculus with 5 samples.

Results

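This account concerns 10 chemokine genes of mouse wound skin, namely Ccl2, Ccl11, Cxcl1, Cxcl2, Cxcl3, Cxcl5, Cxcl9, Cxcl10, Cxcl14 and Cxcl16. They were taken by symbol from the 10664 genes of the authors' comparison of genotypes, and all 10 had an entry there. The cells were keratinocytes sorted from skin 5 days after wounding as CD49f+ and negative for a mix of blood lineage antibodies. The knockout group (cKO) was K14Cre-ER; Nrf2 flox/flox, with 2 samples (replicates 2 and 3), and the control group (WT) was K14Cre-ER; Nrf2 +/+ littermates, with 3 samples (replicates 1 to 3). Both groups therefore carried the Cre, a tamoxifen-dependent recombinase driven by the keratin 14 promoter of basal keratinocytes, and no sample lacked it. The labels give neither a drug dose nor the age or number of the animals, so the samples may not be separate animals. The series' title names Ccl2 as a link by which keratinocytes with Nrf2 signal to macrophages.

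Chemokines are small secreted proteins that bind G protein-coupled receptors and draw leukocytes along a gradient. Ccl2 acts through CCR2 on monocytes and Ccl11 through CCR3 on eosinophils, while the CXC chemokines with an ELR motif (Cxcl1, Cxcl2, Cxcl3 and Cxcl5) act through CXCR2 on neutrophils. Cxcl9 and Cxcl10 are induced by interferon and act through CXCR3 on activated T cells, Cxcl14 is made by resting epithelium, and Cxcl16 is made as a transmembrane protein that binds CXCR6. Many inflammatory chemokine genes are switched on by NF-kB, and interferon acts through STAT and IRF factors.

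The stretches before the start sites of 5 members are shown because Cxcl1, Cxcl2 and Cxcl3 share an NF-kB run and were not all called, and because of the interferon-induced pair Cxcl9 and Cxcl10 only Cxcl9 was called. RefSeq promoters (GRCm38.p6) were matched by symbol for 6 of the 10 members; Ccl2, Ccl11, Cxcl5 and Cxcl16 were not among them. Each line runs 5′ to 3′ from position -250 to -31 relative to the start, and capitals mark matches to the motifs named after the lines. The windows are chr5:90890995-90891214 (plus strand) for Cxcl1, chr5:90903649-90903868 (plus) for Cxcl2, chr5:90785851-90786070 (plus) for Cxcl3, chr5:92328110-92328329 (minus) for Cxcl9 and chr5:92348920-92349139 (minus) for Cxcl10.
Cxcl1: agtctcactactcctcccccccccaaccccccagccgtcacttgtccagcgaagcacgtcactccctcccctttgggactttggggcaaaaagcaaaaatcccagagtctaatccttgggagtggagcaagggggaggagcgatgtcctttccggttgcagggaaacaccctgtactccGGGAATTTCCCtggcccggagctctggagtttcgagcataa
Cxcl2: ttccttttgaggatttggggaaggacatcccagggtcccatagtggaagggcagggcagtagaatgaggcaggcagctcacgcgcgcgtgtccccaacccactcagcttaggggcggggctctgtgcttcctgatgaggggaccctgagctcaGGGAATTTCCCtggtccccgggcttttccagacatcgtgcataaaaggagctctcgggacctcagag
Cxcl3: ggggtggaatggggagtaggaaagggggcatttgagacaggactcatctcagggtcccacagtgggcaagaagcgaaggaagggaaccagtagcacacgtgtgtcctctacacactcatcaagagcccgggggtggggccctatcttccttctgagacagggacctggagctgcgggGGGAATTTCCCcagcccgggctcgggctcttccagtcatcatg
Cxcl9: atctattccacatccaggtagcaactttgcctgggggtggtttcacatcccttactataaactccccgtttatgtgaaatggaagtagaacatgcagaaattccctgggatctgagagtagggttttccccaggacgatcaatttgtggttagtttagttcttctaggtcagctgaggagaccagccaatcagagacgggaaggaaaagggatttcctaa
Cxcl10: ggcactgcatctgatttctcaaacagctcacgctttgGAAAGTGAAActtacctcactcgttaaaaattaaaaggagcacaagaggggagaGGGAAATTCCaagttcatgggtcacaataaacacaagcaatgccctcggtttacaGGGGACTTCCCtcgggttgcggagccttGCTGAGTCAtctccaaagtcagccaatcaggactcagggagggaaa

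The motifs were searched on both strands of the 250 bases before each start. The NF-kB consensus was found in 4 of the 6 matched members (Cxcl1, Cxcl2, Cxcl3 and Cxcl10), against 7.25% of 32851 RefSeq promoters of the same length. In Cxcl1, Cxcl2 and Cxcl3 the match was the same run, GGGAATTTCCC, which holds the consensus once on each strand in overlapping copies and begins at -71, -97 and -73. Looked up after it was seen, this run of 11 bases was present in 12 of the 32851 promoters, and Cxcl1 and Cxcl2 shared 14 bases there (GGGAATTTCCCTGG). Cxcl10 held NF-kB matches at -159 and, overlapping each other, at -104 and -103. It also held the interferon response element core (GAAA, any 2 bases, GAAA) at -213, which was present in 2.98% of promoters and, among the members, also in Cxcl14. The core of the antioxidant response element bound by NRF2, TGACNNNGC, was found in Cxcl10 alone of the 6, at -76 on the reverse strand, overlapping the AP-1 motif TGANTCA at -74; these occurred in 10.2% and 6.75% of promoters. Cxcl9 had no match to any of the 4 motifs in this window.

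The monocyte attractant Ccl2, the eosinophil attractant Ccl11 and 3 of 4 neutrophil attractants were lower in cKO, while 0 of the 4 interferon-induced and steady-state members were. In the authors' deposited table, 5 members fell (Ccl2, Ccl11, Cxcl2, Cxcl3 and Cxcl5) at a false discovery rate (FDR, Benjamini-Hochberg over all genes) under 0.05, a call that 2.15% of all genes had. Only Cxcl9 of the 10 rose, a call that 0.459% of all genes had. Cxcl1, Cxcl10, Cxcl14 and Cxcl16 did not pass. The median log2 fold change of the members (cKO relative to WT) was -1.92, beside 0.00 over all genes. The members were listed with earlier results of these data known, so these shares are a description. The 5 that fell had mean levels of 0.934 to 5.36 CPM, beside a median of 22.7 CPM over all genes. Lower calls were rarer at higher levels, at 0.980% of genes at 5 CPM or more when these were adjusted on their own. The share among genes of like level was not worked out and may be above 2.15%. In the same comparison, markers of fibroblasts (5 of 6 analysed) and endothelial cells (7 of 9) were lower too, and their part in the falls was not tested. In such bulk samples, fewer cells of a type and less RNA per cell cannot be told apart.

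Some of these calls depended on the rule. At an FDR under 0.01, 3 members were lower (Cxcl2, Cxcl3 and Cxcl5) and 0 higher, calls that 1.17% and 0.253% of all genes had. The Benjamini-Yekutieli adjustment left Cxcl3 and Cxcl5 lower and 0 higher (0.919% and 0.169% of all genes). Among genes at 5 CPM or more, Ccl2 and Cxcl5 were lower and 0 members higher (0.980% and 0.178% of those genes). With genes under 0.05 CPM in a genotype left out, Ccl2, Cxcl2 and Cxcl5 were lower and Cxcl9 higher (1.80% and 0.415%). An empirical null, which scales the test statistics by their own spread, gave the same 5 lower and 1 higher members (3.96% and 1.27%). That spread was under 1, so this rule could add calls but remove none. Of the members, Cxcl5 alone was called under each of these rules and under a fold threshold of 1. Its mean of 5.03 CPM was just above the level filter. Cxcl3 was called under each rule that tested it, but the level filter and the near-floor rule left it out untested. The calls of Ccl2 and Cxcl9 ended under the stricter rules.

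The targeted gene Nfe2l2 was at 189 CPM with a log2 fold change of -1.99 (FDR = 0.126 in the authors' deposited table). Which exons the floxed allele removes is not stated in the labels, so this value is no direct check of the deletion. Values per sample were not analysed here. For each gene the authors gave a mean level in log2 CPM, a log2 fold change, a p-value and an FDR. The level of each genotype was worked out from the mean level and the fold change, taking both genotypes to weigh alike, and is called the implied level. Approximate 95% intervals of the fold changes were worked out from the deposited p-values on a normal scale, without adjustment for the number of genes. These p-values and intervals may reflect a spread shared by genes rather than that of each gene between samples. The smallest change of any called gene was 2.20 on the log2 scale, and no gene with a smaller one was called.

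**Figure D1:**
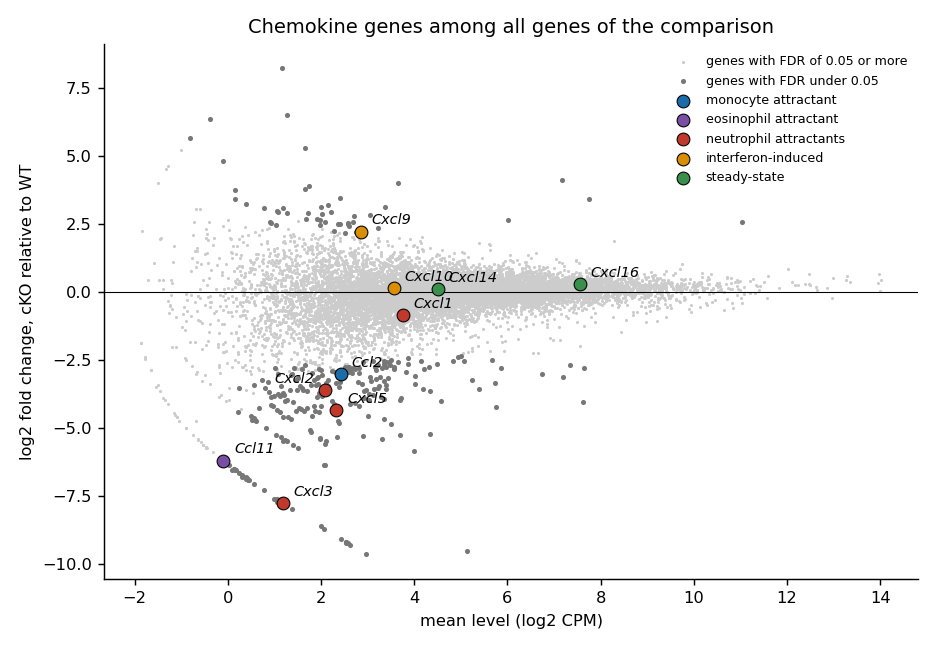
Log2 fold change (cKO relative to WT) against mean level (log2 CPM) for all 10664 genes, with genes past an FDR of 0.05 in dark grey and the 10 chemokines in colour by class. Ccl2, Ccl11, Cxcl2, Cxcl3 and Cxcl5 lie among the dark points below 0 and Cxcl9 among those above it; Ccl11 and Cxcl3 lie on the curved lower edge, where the fold change follows from the level.

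Ccl2 (ENSMUSG00000035385, chromosome 11, 82035571 to 82037453, plus strand, mm10) is the main monocyte attractant of the list. Its mean level was 5.36 CPM, with implied levels of 9.54 CPM in WT and 1.18 CPM in cKO. It fell by 3.01 on the log2 scale, with an interval of -4.72 to -1.31 (FDR = 0.0256 in the authors' deposited table). By p-value it was number 228 of the 10664 genes, and by mean level number 8838. The genes nearest to it in fold change and level, over this 1 comparison, were Ikbip (-3.10 at 5.18 CPM), Senp8 (-2.92 at 4.89 CPM) and Depp1 (-2.94 at 6.06 CPM), all called lower in the authors' deposited table.

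The other CC chemokines near Ccl2 on chromosome 11 had negative values as well. Ccl7, another CCR2 ligand, starts 10.1 kb downstream of the Ccl2 start and had a log2 fold change of -2.06 at 4.56 CPM in the authors' deposited table (interval -3.72 to -0.40, FDR = 0.276). Ccl8, which starts 79.6 kb downstream, had -0.88 at 1.19 CPM, with an interval of -3.54 to 1.77. Ccl2 was thus the 1 called gene of the 3 analysed monocyte attractants, and Ccl12 was not analysed here. The implied levels of these 3 genes summed to 18.4 CPM in WT and 3.78 CPM in cKO.

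Ccl11 (ENSMUSG00000020676, chromosome 11, 82057823 to 82062955, plus strand, mm10) encodes eotaxin and starts 22.3 kb from Ccl2. It had the lowest level of the members, 0.934 CPM, and was number 10518 of 10664 genes. The deposited log2 fold change was -6.19 (FDR = 0.0435 in the authors' deposited table), with implied levels of 1.84 CPM in WT and 0.0252 CPM in cKO. A level under 0.05 CPM is called near the floor here. In all, 56 genes were near the floor in cKO, with implied cKO levels between 0.0195 and 0.0483 CPM and a median of 0.0236 CPM, so that along them the deposited fold change followed the mean level. How the authors treated samples with no reads is not stated beyond a pseudocount in the title of their table. The size of the fall of Ccl11 is therefore not defined by these data, and no fold is drawn from it.

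The neutrophil attractants Cxcl5 and Cxcl2 had the largest falls among the members away from the floor. Cxcl5 (ENSMUSG00000029371, chromosome 5, 90759360 to 90761624, plus strand, mm10), an epithelial CXCR2 ligand, fell by 4.35 at 5.03 CPM on average (interval -6.28 to -2.41, FDR = 0.00163 in the authors' deposited table). Its implied levels were 9.59 CPM in WT and 0.472 CPM in cKO. Cxcl2 (ENSMUSG00000058427, chromosome 5, 90903871 to 90905938, plus strand, mm10), which encodes MIP-2, fell by 3.61 at 4.25 CPM (interval -5.40 to -1.82, FDR = 0.00644 in the authors' deposited table). The implied levels of Cxcl2 were 7.85 CPM in WT and 0.643 CPM in cKO. Cxcl3 (ENSMUSG00000029379, chromosome 5, 90786103 to 90789600, plus strand, mm10) had the smallest p-value of the members and was number 37 of all genes. It was lower in cKO, with a mean of 2.26 CPM (FDR = 0.000323 in the authors' deposited table) and near the floor there, with implied levels of 4.51 CPM in WT and 0.0210 CPM in cKO. As for Ccl11, its deposited value of -7.75 does not define a fold.

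Cxcl1 (ENSMUSG00000029380, chromosome 5, 90891241 to 90893115, plus strand, mm10), which encodes KC, was the 1 of the 4 neutrophil attractants that did not pass. At 13.4 CPM its log2 fold change was -0.83, with an interval of -2.25 to 0.59 (FDR = 1 in the authors' deposited table), and its implied levels were 17.2 CPM in WT and 9.67 CPM in cKO. The interval does not reach that of Cxcl5 and overlaps that of Cxcl2, and the difference between these genes was not tested. It is not compared with that of Cxcl3, whose fold is not defined. Cxcl1 starts 12.6 kb from Cxcl2 and carries the same GGGAATTTCCC run before its start. Summed over the 4 genes, the implied level of neutrophil attractants was 39.2 CPM in WT and 10.8 CPM in cKO, of which Cxcl1 made up 9.67 CPM in cKO. Ppbp and Cxcl15, the other ELR chemokines listed, were not analysed here.

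Reads from Cxcl2 and Cxcl3 could be confused over part of their length. Of the stretches of 50 bases, the labelled read length, 61 in the longest basic transcript of each gene (GENCODE vM21) were also found in the other, which is 3.37% of those of Cxcl2 and 6.31% of those of Cxcl3. Cxcl5 shared 3.08% and Cxcl9 0.599% of such stretches with unrelated genes, and the other 6 members shared none. The values of Cxcl2 and Cxcl3 rest for the most part on sequence of their own.

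**Figure D2:**
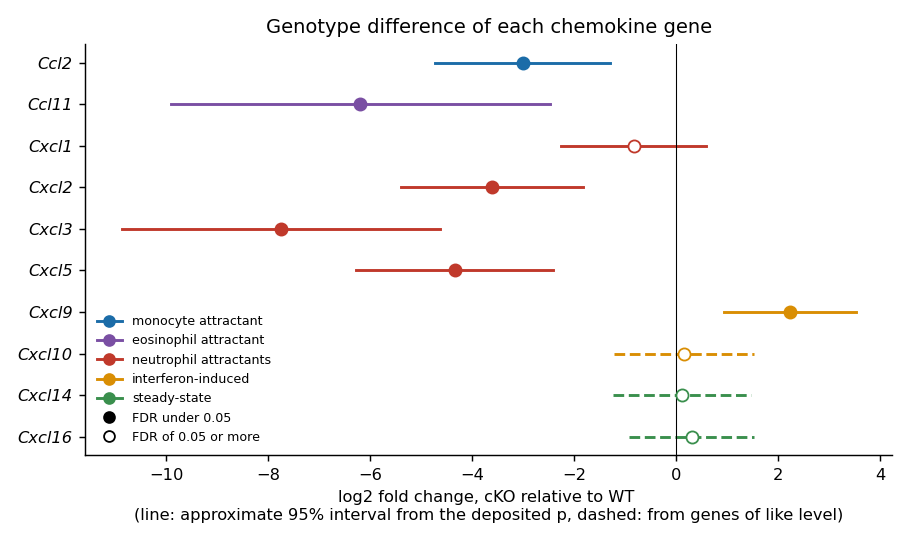
Log2 fold change (cKO relative to WT) of each member with an approximate 95% interval, solid where it comes from the gene's own deposited p-value and dashed, for values under 0.5, from the genes of like level. The intervals of Ccl2, Ccl11, Cxcl2, Cxcl3 and Cxcl5 lie below 0 and that of Cxcl9 above it, while those of Cxcl1, Cxcl10, Cxcl14 and Cxcl16 include 0. Those of Ccl11 and Cxcl3 rest on folds that are not defined near the floor.

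Of the interferon-induced attractants, Cxcl9 rose and Cxcl10 did not pass. Cxcl9 (ENSMUSG00000029417, chromosome 5, 92321347 to 92328079, minus strand, mm10) rose by 2.23 at 7.23 CPM (interval 0.94 to 3.52, FDR = 0.0310 in the authors' deposited table). Its implied levels were 2.54 CPM in WT and 11.9 CPM in cKO. Cxcl10 (ENSMUSG00000034855, chromosome 5, 92346638 to 92348889, minus strand, mm10) starts 20.8 kb from Cxcl9 and had 0.15 at 11.8 CPM (FDR = 1 in the authors' deposited table), with implied levels of 11.1 CPM in WT and 12.4 CPM in cKO. For a value this close to 0, an interval was taken from the median standard error of 803 genes of like level, and it ran from -1.22 to 1.53, which overlaps that of Cxcl9. The rise of Cxcl9 had a size just above the smallest called change of any gene. Among genes of like size of change, rises were called more often than falls in the authors' deposited table, and that difference was not tested: of genes at 5 to 10 CPM with changes of 2 to 3, 12 of 19 that were higher and 18 of 51 that were lower were called. Cxcl11 was not analysed here.

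The steady-state members Cxcl16 and Cxcl14 had log2 fold changes near 0. Cxcl16 (ENSMUSG00000018920, chromosome 11, 70453983 to 70459984, minus strand, mm10) stood at 188 CPM, number 1009 of all genes, with a log2 fold change of 0.30 in the authors' deposited table and an interval from like genes of -0.92 to 1.53. Cxcl14 (ENSMUSG00000021508, chromosome 13, 56288643 to 56296551, minus strand, mm10) stood at 22.8 CPM with a log2 fold change of 0.11 and an interval of -1.24 to 1.46. Both had an adjusted p of 1 in the authors' deposited table, and the intervals leave room for a change of more than 1 on the log2 scale in either direction for Cxcl14 and upward for Cxcl16. The implied levels of Cxcl16 were 168 CPM in WT and 208 CPM in cKO, and those of Cxcl14 were 21.9 and 23.7 CPM.

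**Figure D3:**
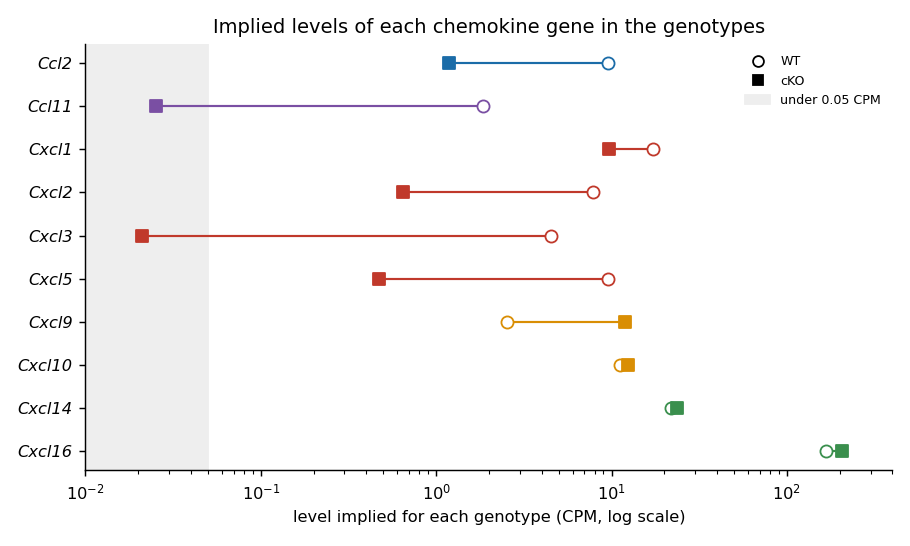
Level of each member implied for WT (open circles) and cKO (filled squares), in CPM on a log scale, with the range under 0.05 CPM shaded. Ccl11 and Cxcl3 enter the shaded range in cKO, Cxcl9 is the member whose cKO level lies well to the right of its WT level, and Cxcl10, Cxcl14 and Cxcl16 nearly coincide.

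The deposited levels moved with transcript length: coding genes up to the 25th percentile of length (median 1375 bases) had a median level of 12.7 CPM and those from the 75th percentile (median 6261 bases) one of 49.8 CPM. Levels of different members were therefore compared after division by the length of the longest basic transcript. The title of the authors' table speaks of TPM, a unit already divided by length, so this division may be a second one. On that scale Cxcl16 was highest, at 69.6 CPM per kb, followed by Cxcl1 (14.1), Cxcl14 (12.5), Cxcl10 (8.70), Ccl2 (6.59), Cxcl5 (3.19), Cxcl9 (2.50), Cxcl2 (2.28), Cxcl3 (2.23) and Ccl11 (0.864 CPM per kb). Over both genotypes, the transmembrane chemokine Cxcl16 was thus the highest of the 10, and Cxcl1 stood above the other neutrophil attractants. Implied levels per kb gave another order in each genotype. In WT, Ccl2 came after Cxcl16 (62.3), Cxcl1 (18.1) and Cxcl14 (12.0) with 11.7 CPM per kb, and Cxcl9 was last with 0.880 CPM per kb. In cKO, Cxcl9 had 4.12 CPM per kb and Ccl2 1.45 CPM per kb, so their order was opposite in the genotypes. The levels carry no spread between samples, so which neighbours in the order differ beyond it is unknown; Cxcl2 and Cxcl3 are nearly equal. By the deposited level, without length, Cxcl14 was above Cxcl1 and Cxcl9 was above Ccl2 and Cxcl5.

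The analysed neighbours of the members that encode no chemokine were not called. Within 100 kb of a member start, 10 such genes were analysed, of which 0 had an FDR under 0.05 or an unadjusted p under 0.05 in the authors' deposited table and whose log2 fold changes ran from -0.31 to 0.99, with a median of 0.17. Of all genes 2.61% were called in either direction, so 0 of 10 is near that share and does not set these neighbours apart. Mthfd2l, a folate enzyme gene that starts 27.2 kb from Cxcl2, had 0.99 at 10.4 CPM in the authors' deposited table. Art3, whose start lies 3.75 kb from that of Cxcl9, had -0.31, and Sdad1, 17.6 kb from it, had 0.11. In the ELR cluster the values did not follow the order of the genes, since Cxcl1 lies between Cxcl3 and Cxcl2, which both were called.

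**Figure D4:**
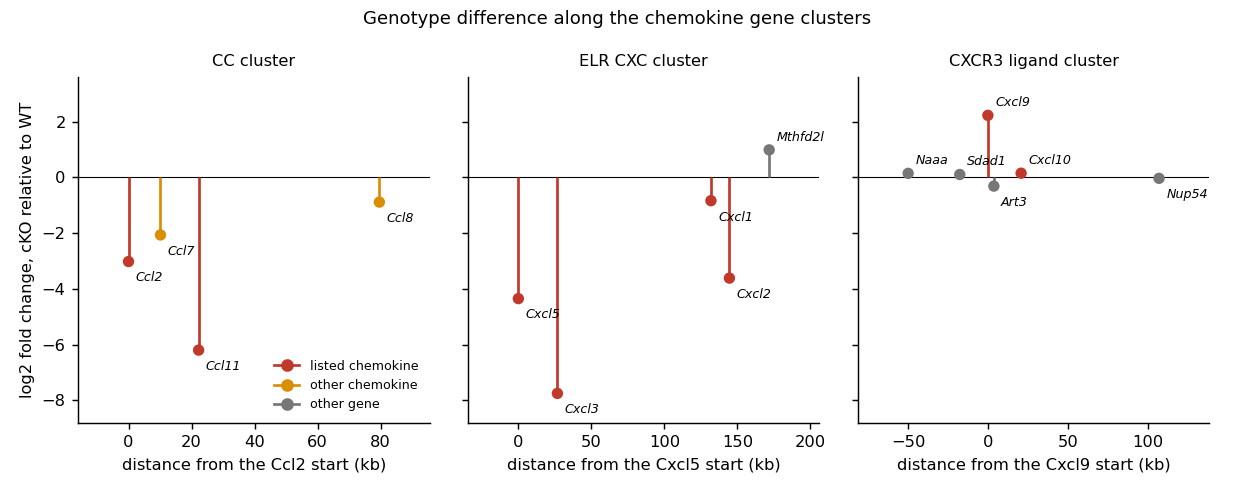
Log2 fold change (cKO relative to WT) of chemokine genes and of other genes within 100 kb, against the distance of their start sites in kb from the start of Ccl2, Cxcl5 or Cxcl9. Listed chemokines are red, other chemokines orange and other genes grey; in the left and middle panels every chemokine is below 0, while the grey neighbours lie between -0.31 and 0.99.

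Beyond the 10 members, 7 further chemokine ligand genes of the 28 listed were analysed, of which 1 was lower and 0 higher at an FDR under 0.05. That gene was Ccl21a, the CCR7 ligand of lymphatic vessels, whose cKO level was near the floor (mean level 5.39 CPM, FDR = 9.98e-07 in the authors' deposited table). It shared 71.6% of its stretches of 50 bases with near-identical copies, so its value is uncertain. Ccl20, a CCR6 ligand of epithelia, had -1.10, Cxcl12, the stromal CXCR4 ligand, had -1.51 at 19.1 CPM, Ccl25 had 1.81 and Ccl27a, a keratinocyte chemokine that also shares sequence with copies, had 0.92 at 94.9 CPM in the authors' deposited table. None of these 4 passed. In the authors' comparison the unadjusted p was 0.00755 for Ccl25, which was higher in cKO, and 0.0327 for Cxcl12, which was lower.

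Among receptors, 4 of 18 classical and 4 of 5 atypical or decoy receptor genes were analysed. Cxcr4, the receptor of Cxcl12, was called lower, with its cKO level near the floor (2.06 CPM, FDR = 0.000527 in the authors' deposited table). Cxcr2, through which the ELR chemokines act, had -1.03 at 7.57 CPM (FDR = 1), and the classical receptor genes with the highest deposited levels, Ccr4 and Ccr9, had log2 fold changes of 0.34 and -0.23, per the authors' deposited table. Of the atypical receptors 0 were called, also at an unadjusted p under 0.05, with values from -0.54 (Ackr4) to 0.71 (Ackr2). Ccr2, Ccr3 and Cxcr3, the receptors of Ccl2, Ccl11 and the interferon-induced pair, were not analysed here.

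The lists of genes upstream of chemokines, which hold activators as well as inhibitors, had medians between -0.08 and 0.26. With 2.61% of all genes called in either direction, counts of 0 in lists of this size are near that share. Of 15 NF-kB genes 0 passed, with a median of 0.26, and 12 had positive values. The subunit gene Relb, at 1.49, was the 1 with an unadjusted p under 0.05; Tnfaip3, the feedback inhibitor A20, had 0.00 at 1067 CPM and the subunit gene Rel 0.06 at 522 CPM in the authors' deposited table. Of 19 cytokine, receptor and adaptor genes that act upstream 1 passed, Il6, which fell by 2.81 at 11.9 CPM (FDR = 0.0199 in the authors' deposited table), and the median was -0.08. Those with the highest levels, the IL-1 antagonist gene Il1rn and the gp130 gene Il6st, had 0.23 and 0.46. The cytokine genes Tnf, Il1a and Il1b had -1.50, -1.18 and 0.35, did not pass, and had intervals that include 0. Of 12 interferon signalling genes 0 passed (median 0.07). The receptor gene Ifnar1, at -1.43, was the 1 with an unadjusted p under 0.05, and the kinase genes Jak1 and Jak2 had log2 fold changes of 0.24 and 0.37, per the authors' deposited table.

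Genes that act on chemokine transcripts and proteins had list medians near 0. Of 9 regulators of mRNA decay 0 passed, also at an unadjusted p under 0.05 (median 0.14); Zfp36, which encodes tristetraprolin, had -0.90 at 672 CPM and the Regnase family gene Zc3h12c 0.45 at 394 CPM in the authors' deposited table. Of 12 genes for shedding, trimming and matrix binding 1 passed, the gelatinase gene Mmp9, which fell by 4.83 at 11.3 CPM (FDR = 5.44e-05 in the authors' deposited table), and the median was -0.06. In all, 4 of the 12 had an unadjusted p under 0.05, each with a negative value; beside Mmp9 these were the gelatinase gene Mmp2 (-2.20), the perlecan gene Hspg2 (-1.76) and the peptidase gene Dpp4 (-1.56), which did not pass. Cd44 and the syndecan gene Sdc4, which had the highest levels, had 0.20 and 0.09. For comparison, 2.61% of all genes were called in either direction.

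**Figure D5:**
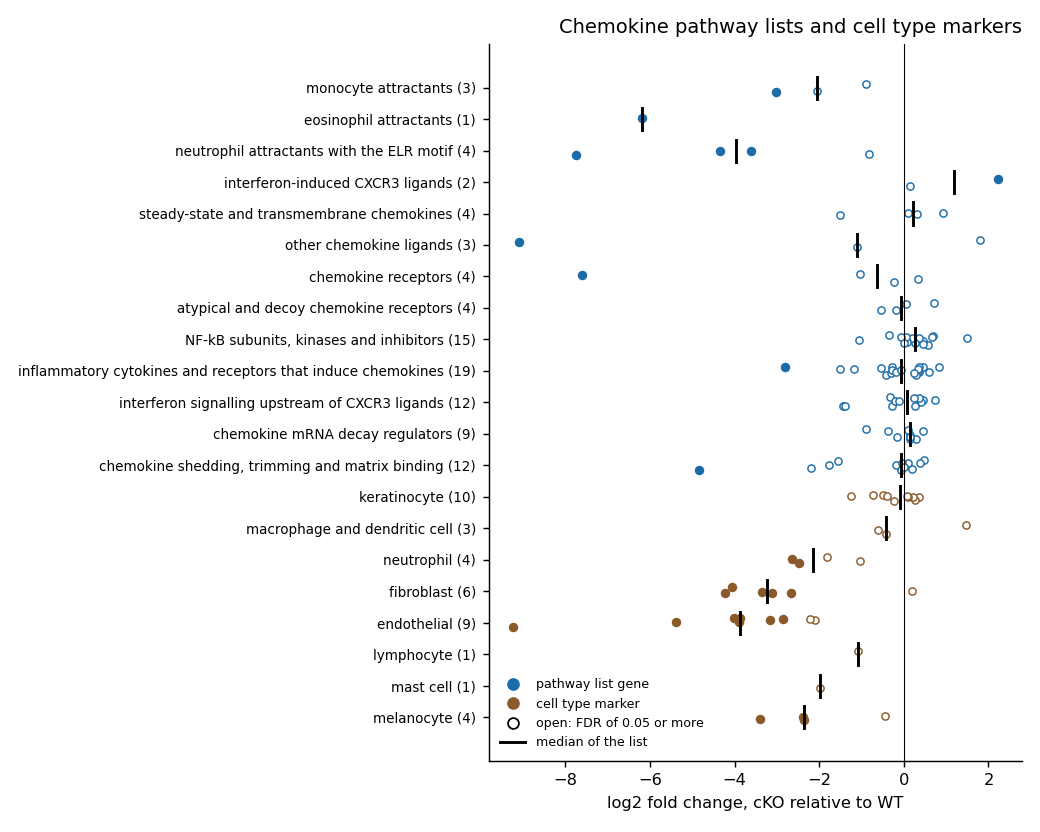
Log2 fold change (cKO relative to WT) of the genes of 13 chemokine pathway lists (blue) and 8 cell type marker lists (brown), filled where the FDR was under 0.05, with the median of each list as a bar and the number of analysed genes in brackets. On the left of 0, the neutrophil attractants hold 3 filled points. The monocyte, eosinophil, other ligand, receptor, inflammatory cytokine and shedding lists hold 1 each there. Filled points of the markers stand in the neutrophil, fibroblast, endothelial and melanocyte lists, also on the left of 0, while filled Cxcl9 lies to the right.

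Of the keratinocyte markers, all 10 were analysed and 0 called, also at an unadjusted p under 0.05 (median -0.08). The share of all genes called in either direction was 2.61%. Krt5 and Krt14 were at 1198 and 894 CPM, and Krt10 and Krt1 of the same list were higher, at 15762 and 4847 CPM. The markers of several other cell types were lower in cKO in the same comparison. Fibroblast markers had 5 of 6 analysed genes lower (implied sum 1318 CPM in WT and 346 CPM in cKO), endothelial markers 7 of 9 (180 and 18.9 CPM), melanocyte markers 3 of 4 (123 and 31.9 CPM) and neutrophil markers 2 of 4 (195 and 45.2 CPM). The log2 fold changes of called markers were -4.05 for the collagen gene Col3a1, -4.01 for the VE-cadherin gene Cdh5, -2.38 for the pigment gene Dct, and -2.48 and -2.63 for the neutrophil genes S100a9 and Stfa2, per the authors' deposited table; S100a8 and S100a9 are also made by wound keratinocytes. Of 15 macrophage and dendritic cell markers 3 were analysed, with 0 called (implied sum 12.5 CPM in WT and 10.7 CPM in cKO). The 1 with an unadjusted p under 0.05, Cd68, was higher in cKO (log2 fold change 1.46), and the other 2 had negative values. Of lymphocyte and mast cell markers 1 each was analysed and 0 called, and the mast cell marker had an unadjusted p under 0.05. Ccl2, Ccl11, Cxcl12 and Il6 are also made by fibroblasts and Ccl21a by endothelium. Which cells made the transcripts of any member, Cxcl2, Cxcl3 and Cxcl5 included, was not tested.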

How the data were processed

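RNA of 5 sorted samples was sequenced as paired reads of 50 bases, with Trimmomatic 0.35, STAR 2.6.0c, RSEM and build mm10 listed in the submitters' processing notes. The authors deposited 1 comparison of WT with knockout over 10664 genes: a log2 fold change, a mean level as log2 CPM, a p-value and an FDR, per the file headers. The table's title speaks of TPM, a filter and a pseudocount. The tool that made the values, the depth and the libraries used are not given in the sources used here. The base of 2 was taken from the levels, which sum to 1.00436e+06 CPM. Text beside 2 negative entries calls them higher in the knockout, so signs were turned to cKO relative to WT. The FDR was recomputed from the p-values with a largest difference of 7.17e-15.

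The planned fit on samples could not be run on a comparison table, so the deposited FDR under 0.05 was used. Among 1426 genes at 16 CPM or more with changes of 0.5 to 3, the error implied by the p-value differed by a median of 0.295% between genes nearest in fold and level. There the p-values followed fold and level, so the intervals reflect a spread shared by genes, which may be technical. The members called lie below that level and were not covered. For Ccl2 the implied error was 0.872, beside 0.869 for Ikbip, 0.865 for Senp8 and 0.823 for Depp1, the genes nearest to it. Whether the p-values of members measure the spread of each gene between samples is therefore not known. Intervals for changes under 0.5 on the log2 scale used the median implied error of genes within 0.5 in log2 level whose changes were 0.5 to 3. The members and gene lists were chosen with earlier results of these data known. Named genes were the members, chemokine ligands and receptors, the called and the 2 highest genes of each pathway list, called markers, neighbours within 100 kb and the 3 genes nearest Ccl2. The examples given beyond this rule were chosen after their values were seen. Symbols (10655 genes) and positions came from GENCODE vM21 and promoters from RefSeq. The adjustments were tested on simulated data. Scripts ran in Python 3.11.15 with pandas 2.3.3, SciPy 1.17.1, NumPy 2.4.6 and, for plots, matplotlib 3.10.9.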

Additional observations from a re-analysis of the deposited data

How the results depend on the processing

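The calls, given by rule beside the first count, fell from 5 lower members to 3 (FDR under 0.01; near-floor genes left out) or 2 (Benjamini-Yekutieli; level filter of 5 CPM), and from 1 higher member to 0 (FDR under 0.01; Benjamini-Yekutieli; level filter). The deposited p of Cxcl9, the member lost, was 0.000713, and its FDR with the level filter was 0.0577. Stricter rules lower counts by construction, and the level filter removed Cxcl2, Cxcl3 and Ccl11 outright. A fold threshold of 1 and the empirical null (robust SD 0.821) gave the same 6 members. Over the alternatives the adjusted p of Ccl2 ran from 0.00120 to 0.252, that of Cxcl9 from 0.00164 to 0.306, that of Ccl11 from 0.00280 to 0.428 and that of Cxcl2 from 0.000123 to 0.0634. In all, 47 of 55 adjusted p-values of members kept their side of the threshold and 8 lost it, counting the fold threshold and the empirical null. Neither the fold threshold nor the empirical null could end a call. Cxcl1, Cxcl10, Cxcl14 and Cxcl16 stayed at 0.742 or more throughout, so all 8 losses were among the 6 called members. The count of 47 is therefore no measure of how stable the calls were. Weighing the genotypes 3 to 2, as the samples are numbered, moved no implied level of a member by more than 1.5 times. These weights could not do so for any fold change, so this outcome was fixed in advance. No paired analysis was possible because values per sample were not analysed here, and leaving out replicates and other pseudocounts were not run for the same reason.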
